A study of Xenopus laevis with 3 samples.

Results

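The genes that start, extend and end protein synthesis and that charge tRNAs were examined in the inner ear of the juvenile frog Xenopus laevis. Members were the probe sets (Xl-PSIDs) whose single gene symbol in the platform annotation names a eukaryotic initiation factor (eif) or elongation factor (eef), the release factors etf1 and gspt1, a cytoplasmic poly(A) binding protein or its partner (pabpc, paip), or an aminoacyl-tRNA synthetase, with the kinase eif2ak3 left out. This rule gave 171 of the 32635 Xl-PSIDs on the array, for 84 of 9240 named genes once the L and S homeologs of this allotetraploid species were joined. Of these 171, 3 are array controls for elongation factor 1 alpha, so 168 were counted beside the 32539 Xl-PSIDs that are no controls. All 3 arrays form a single group of post metamorphic animals about 3 months old, bought from a supplier and given no treatment in the labels. Each array held RNA pooled from separate animals, 5, 5 and 6 on replicates 1, 2 and 3, with mean weights of 9, 9.6 and 9.6 g. Larval ears are not part of these arrays, so stages could not be compared, and whole inner ears hold many cell types. Among the 14 otic marker genes, including gata3, sox2 and pax2, all 14 were detected.

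Protein synthesis starts when a small ribosomal subunit carrying initiator tRNA is brought to the capped end of an mRNA by the eIF4 factors and scans to a start codon, with eIF2 delivering the tRNA and eIF3 holding the assembly together. Elongation factors then bring charged tRNAs and move the ribosome, and release factors end the chain. Aminoacyl-tRNA synthetases join each amino acid to its tRNA, separately for cytosol and mitochondria, and variants in several synthetase genes cause hearing loss or neuropathy in humans.

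Values are GCRMA intensities on the log2 scale (a.u.), given for replicates 1, 2 and 3 in this order or as the mean ± SD (n = 3 arrays). Where a gene has several Xl-PSIDs, that of highest mean is printed unless another is described. Xl-PSIDs bind with different strength, so the value of one gene was not set against that of another. Of the 168 Xl-PSIDs, 150 (89.3%) were detected, that is, averaged at least 4, the study's intensity minimum, against 64.4% of all Xl-PSIDs and 72.8% of those with 1 gene symbol. A limma test for means exceeding 4 (one-sided) passed these same 150 at a Benjamini-Hochberg adjusted p below 0.05, against 62.2% of all Xl-PSIDs and 70.8% of those with 1 symbol. At least 1 Xl-PSID was detected for 81 of 84 genes, while 80.2% of all named genes reached this. The genes not detected were the kinase eif2ak1, the embryonic poly(A) binding protein pabpc1l and the mitochondrial alanyl-tRNA synthetase aars2. Among detected members the median of the means was 11.3, against 9.70 for all detected Xl-PSIDs and 10.06 for those with 1 gene symbol. Because binding strength differs between Xl-PSIDs, these medians were not read as a difference in expression.

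Cap binding was examined first. All 13 genes with an eif4 symbol were detected, on 29 of 31 Xl-PSIDs. The cap binding protein eif4e read 10.54, 10.65 and 10.96, lowest on replicate 1 and highest on replicate 3. Its relatives were detected too: eif4e2, which binds the cap but represses translation in mammals, was at 12.09 ± 0.15 and eif4e3 at 10.98 ± 0.08. The oocyte form eif4e1b read 11.79, 12.18 and 12.09 on an Xl-PSID of a class that can match several transcripts. Its other Xl-PSID, not of such a class, read 7.97, 7.84 and 7.88, also above the minimum but highest on replicate 1. None of the 8 Xl-PSIDs for other oocyte markers, such as zar1 and zp2, was detected. Proteins that hold eif4e back were also detected. The inhibitor eif4ebp2, which releases eif4e when phosphorylated, was at 12.29 ± 0.22, and the transporter eif4enif1, which carries eif4e to the nucleus, was at 11.60 ± 0.20.

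The scaffold and helicases of the cap complex were detected too. The scaffold eif4g1, which bridges eif4e, the helicase and the poly(A) binding protein, read 12.98, 12.79 and 12.98. The Xl-PSID for eif4g3, a second scaffold and the sole member without a homeolog letter, was at 7.81 ± 0.15. For the RNA helicase eif4a1 the Xl-PSID of highest mean read 12.32, 12.49 and 11.82, and another read 9.23, 9.35 and 7.87, the largest range (1.48) of any detected member. Both were lowest on replicate 3, as was eif4a2 with 12.19, 12.34 and 11.83. The related helicase eif4a3.1, a core part of the exon junction complex, was at 13.18 ± 0.13. The helicase cofactors eif4b (13.61 ± 0.07) and eif4h (13.23 ± 0.14) were lowest on replicate 1 on their Xl-PSIDs of highest mean. Of the 4 Xl-PSIDs for eif4b, however, 2 were lowest on replicate 1 and 2 on replicate 3, for example 12.00, 12.23 and 11.67.

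**Figure D1:**
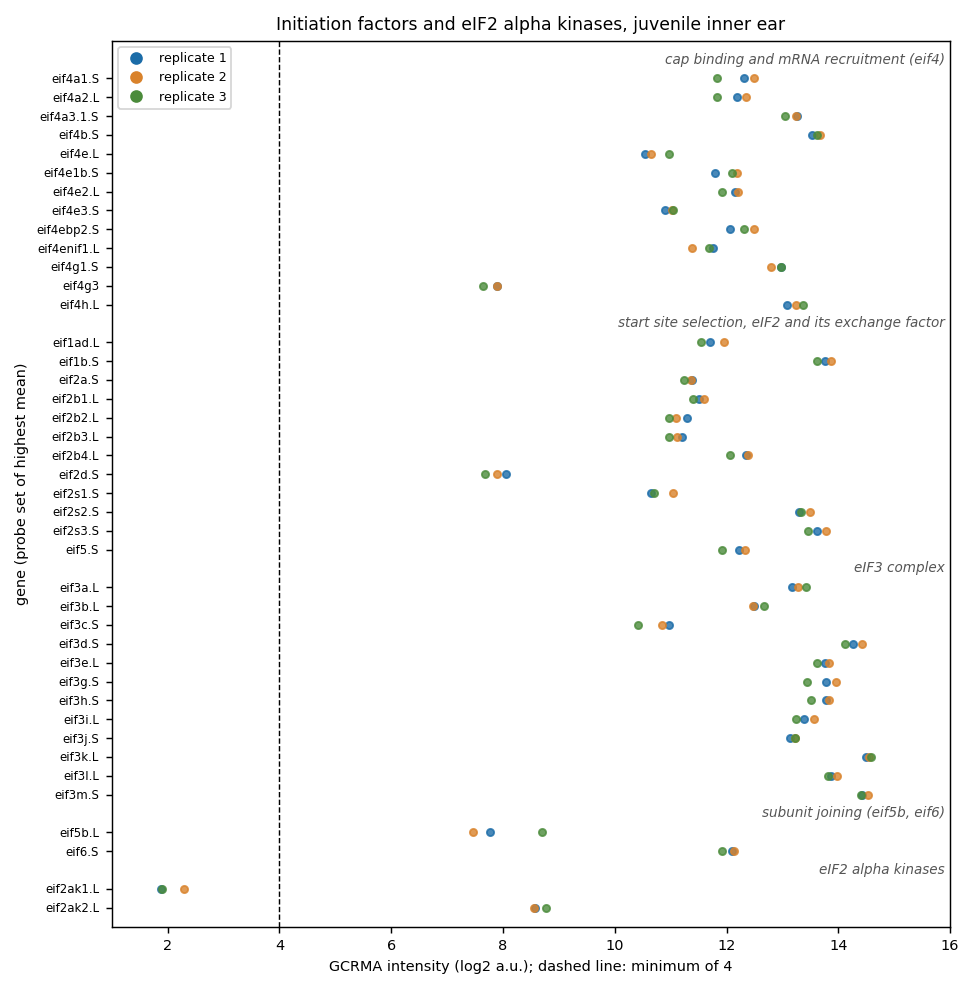
GCRMA intensity (x axis, log2 a.u.) of the Xl-PSID of highest mean for each initiation factor and eIF2 alpha kinase gene (y axis, grouped by role), with 1 point per replicate and a dashed line at the minimum of 4. All genes but eif2ak1 lie to the right of the line, and the points of eif5b (7.77, 7.46 and 8.70) are spread most widely.

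Genes for start site selection came next, and all 12 were detected, on 21 of 23 Xl-PSIDs. The eIF2 trimer carries initiator tRNA, and its subunits read 10.64, 11.05 and 10.70 for eif2s1 (alpha, the subunit phosphorylated under stress), 13.30, 13.50 and 13.34 for eif2s2 (beta) and 13.62, 13.78 and 13.45 for eif2s3 (gamma, which binds GTP and the tRNA). All these Xl-PSIDs were highest on replicate 2. The exchange factor eIF2B reloads eIF2 with GTP, and the 4 subunits measured had means from 11.10 ± 0.12 (eif2b3) to 12.26 ± 0.17 (eif2b4). Each subunit of eIF2B was lowest on replicate 3, and no Xl-PSID carried the symbol of the catalytic subunit eif2b5. The GTPase activator eif5 (12.16 ± 0.21), the start codon fidelity factor eif1b (13.75 ± 0.13) and eif1ad (11.73 ± 0.21) were detected. So were eif2a (11.33 ± 0.08) and eif2d (7.88 ± 0.19), which are no eIF2 subunits and can deliver tRNA by other routes. By the Xl-PSID of highest mean, 10 of the 12 genes were lowest on replicate 3 and none was highest there. Over all 21 detected Xl-PSIDs, 16 were lowest on replicate 3 and 2, both for eif2a, were highest there. Among detected Xl-PSIDs with 1 symbol these shares were 38.8% and 29.3%.

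The eIF3 complex was covered by 30 Xl-PSIDs for 12 of its subunits, and all 30 were detected. Subunits of its core and of its outer modules read between 10.74 ± 0.30 (eif3c) and 14.54 ± 0.05 (eif3k). Spread was smallest for eif3j (13.13, 13.23 and 13.22), which sits in the decoding site, for eif3k (14.49, 14.55 and 14.59) and for eif3m (14.43, 14.52 and 14.40). The RNA binding subunit eif3d read 14.27, 14.42 and 14.11, and the core subunit eif3g read 13.78, 13.95 and 13.44, both highest on replicate 2 and lowest on replicate 3. The largest subunit eif3a had the most Xl-PSIDs of any member gene, 11, and they did not move as one. On 9 of them replicate 3 was lowest, for example 10.25, 10.14 and 9.50 on an Xl-PSID for the S homeolog. The Xl-PSID of highest mean, for the L homeolog, read 13.17, 13.28 and 13.41, with replicate 3 highest. Another for L read 11.67, 11.60 and 11.05, so Xl-PSIDs under the same homeolog symbol differed in order. Every Xl-PSID for L that was lowest on replicate 3 was of a class that can match several transcripts. The other for L outside such classes read 12.73, 12.62 and 12.83, also highest on replicate 3.

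Both factors of subunit joining were detected. The GTPase eif5b, which joins the large ribosomal subunit, read 7.77, 7.46 and 8.70, and its range of 1.24 was the widest among the Xl-PSIDs printed for initiation genes in the plot of their levels. The factor eif6, which keeps free large subunits apart from small ones, was steady at 12.05 ± 0.12. Of the kinases that phosphorylate eIF2 alpha and so slow initiation, eif2ak2, activated by double stranded RNA, read 8.58, 8.56 and 8.77. The heme regulated kinase eif2ak1, which acts in red blood cells, lay at the floor of the scale with 1.89, 2.29 and 1.89. Red blood cell transcripts were present beside it, with hba1 at 13.46, 13.53 and 12.92. The amino acid sensing kinase eif2ak4 had no Xl-PSID under its symbol.

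All 8 elongation factor genes were detected, on 14 of 18 Xl-PSIDs. The exchange factor complex that reloads elongation factor 1 alpha with GTP was detected for all its subunits, with 15.03, 15.04 and 15.05 for eef1b2, 14.83, 14.91 and 14.69 for eef1d and 14.83, 14.86 and 14.85 for eef1g. The SD was 0.01 for eef1b2 and 0.02 for eef1g. The translocase eef2.1 read 14.97, 14.97 and 14.88, and eif5a, which helps the ribosome past difficult peptide bonds and carries the modified amino acid hypusine, read 14.02, 14.07 and 14.08. Many of these values lie near the top of the scale, where spread was small in general, with a median SD of 0.06 for the 8 elongation factor Xl-PSIDs with a mean of 14 or more and 0.05 for all 417 such Xl-PSIDs. The subunit eef1e1, which in mammals belongs to the complex of synthetases, was lower in replicate 3 with 10.31, 10.20 and 9.90.

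Elongation factor 1 alpha, which carries charged tRNA to the ribosome, was measured under the symbols eef1a2 and eef1a1o. The Xl-PSID for eef1a2.S read 14.57, 14.57 and 14.40. In mammals eef1a2 is the form of muscle and neurons. No member carried the symbol of the related form eef1a1, which could not be followed. Skeletal muscle markers summed to log2 values of 118.8, 110.8 and 129.2 over 14 genes, with tnnc1 below the minimum. Of 23 detected muscle Xl-PSIDs, 5, for myh8, myh4 and atp2a1, were highest on replicate 1. Those for myh8 did not pass limma. Neuron markers summed to 134.7, 126.3 and 118.1 over 14 genes, with elavl3 and syt1 below the minimum. The part of these cell types in the values of eef1a2 was not tested. For eef1a1o, the oocyte form in Xenopus, the L homeolog was steady at 9.74, 9.70 and 9.67. Its S homeolog read 2.21, 5.44 and 2.22, above the minimum on replicate 2 alone, and its range of 3.23 was the largest of all members, detected or not.

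The 3 control Xl-PSIDs for eef1a2.S lie toward the 5′ end, the middle and the 3′ end of the transcript. The fall of signal toward the 5′ end is a usual measure of RNA quality. The authors state that every replicate reached their minimum RNA integrity number, and the RNA was amplified for labelling. At the 3′ end they read 14.50, 14.55 and 14.34. In the middle the values were 13.32, 13.50 and 12.69, and at the 5′ end 11.37, 11.55 and 10.47. The 5′ minus 3′ difference was therefore -3.13, -3 and -3.87, furthest from 0 on replicate 3. The controls for gapdh gave -1.13, -1.04 and -1.36, again furthest from 0 on replicate 3. On replicate 3, then, signal far from the 3′ end was lower for 1 member transcript.

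**Figure D2:**
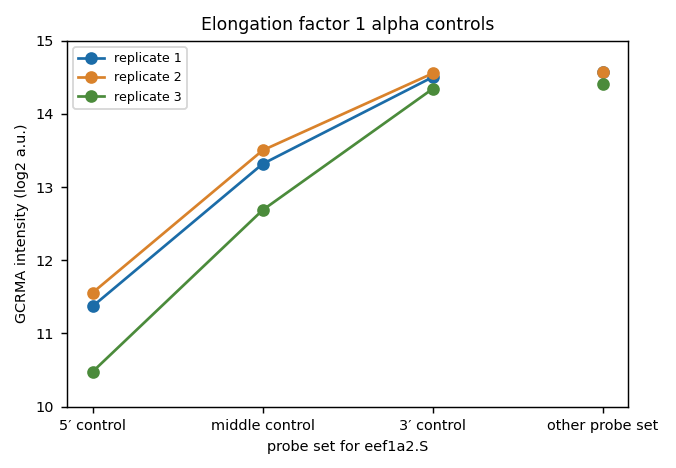
GCRMA intensity (y axis, log2 a.u., starting at 10) of the control Xl-PSIDs at the 5′ end, middle and 3′ end of eef1a2.S and of the other Xl-PSID for this transcript (x axis), with 1 colour per replicate and lines joining the controls of an array. Replicate 3 lies 1.08 below replicate 2 at the 5′ end and close to it at the 3′ end.

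Enzymes that methylate elongation factors were detected for all 3 genes measured. The lysine methyltransferases of elongation factor 1 alpha read 9.22, 9.14 and 8.75 (eef1akmt1) and 8.37, 8.16 and 8.36 (eef1aknmt). The methyltransferase of elongation factor 2, eef2kmt, read 7.22, 6.91 and 6.26. All 3 were highest on replicate 1, as were 33.2% of detected Xl-PSIDs with 1 symbol.

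Both release factors were detected. The Xl-PSID for etf1, which reads the stop codon, read 10.94, 11.32 and 10.42, a range of 0.90 with replicate 3 lowest. Its partner GTPase gspt1 had the opposite order on its Xl-PSID of highest mean, with 11.13, 11.07 and 11.52. Of its 4 Xl-PSIDs, however, 2 were highest on replicate 1, 1 on replicate 2 and only this 1 on replicate 3.

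Among poly(A) binding proteins, pabpc1, which coats the tail of mRNAs and binds eif4g1, read 14.05, 14.01 and 13.63, and pabpc4 was at 10.80 ± 0.11. The embryonic form pabpc1l, abundant in Xenopus oocytes, was not detected on either homeolog, at 2.13 ± 0.13 on L and 1.90 ± 0.00 on S. The partners of pabpc1 were detected too. The activator paip1 read 9.43, 9.52 and 8.85, highest on replicate 2 and lowest on replicate 3. The inhibitor paip2b read 13.46, 13.65 and 13.61 on its Xl-PSID of highest mean, also highest on replicate 2 but lowest on replicate 1. Of its 5 Xl-PSIDs, 4 were lowest on replicate 1 and 4 were highest on replicate 3. That of widest range read 8.70, 8.89 and 9.59.

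Cytosolic tRNA synthetases were detected for all 18 genes, on 29 of 31 Xl-PSIDs. They included those for alanine (aars1, 12.19 ± 0.17), cysteine (cars1, 11.25 ± 0.13), glutamate and proline (eprs1, 12.04 ± 0.27), glycine (gars1, 12.03 ± 0.33), lysine (kars1, 13.11 ± 0.09), tyrosine (yars1, 12.38 ± 0.09) and tryptophan (wars1, 9.46 ± 0.09). In humans variants of kars1 cause deafness and variants of gars1 and yars1 cause neuropathy, and both kars1 and gars1 also serve mitochondria there. The enzyme for threonine, tars1, varied least, with 11.45, 11.49 and 11.45.

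Some synthetases were highest on replicate 1. The enzyme for serine, sars1, read 11.14, 10.67 and 10.62. That for leucine, lars1, read 10.67, 10.35 and 10.21, and eprs1 read 12.33, 11.96 and 11.82. Methionyl-tRNA synthetase mars1 was highest on replicate 1 on both homeologs, with 9.80, 9.31 and 9.35 on S and 9.61, 8.97 and 8.86 on L. Others went differently, such as gars1 with 12.10, 12.32 and 11.67 and rars1, for arginine, with 12.40, 12.60 and 12.25. By the Xl-PSID of highest mean, 9 of the 18 genes were highest on replicate 1, 7 on replicate 2 and 2 on replicate 3. Over all 29 detected Xl-PSIDs these counts were 15, 8 and 6. Among detected Xl-PSIDs with 1 symbol the shares were 33.2%, 37.5% and 29.3%.

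Mitochondrial synthetases were measured by 1 Xl-PSID each, and 6 of 7 were detected. The enzyme hars2, whose human counterpart is mutated in Perrault syndrome with hearing loss, read 13.47, 13.27 and 13.48. Its companion in this syndrome, lars2, read 9.19, 8.66 and 9.13. The others were cars2 (8.38 ± 0.24), pars2 (8.02 ± 0.15), rars2 (7.99 ± 0.18) and mars2, which at 4.94, 5.66 and 5.00 lay nearest to the minimum (limma adjusted p = 0.0126). The enzyme aars2 read 2.48, 2.05 and 2.05 and was not detected.

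**Figure D3:**
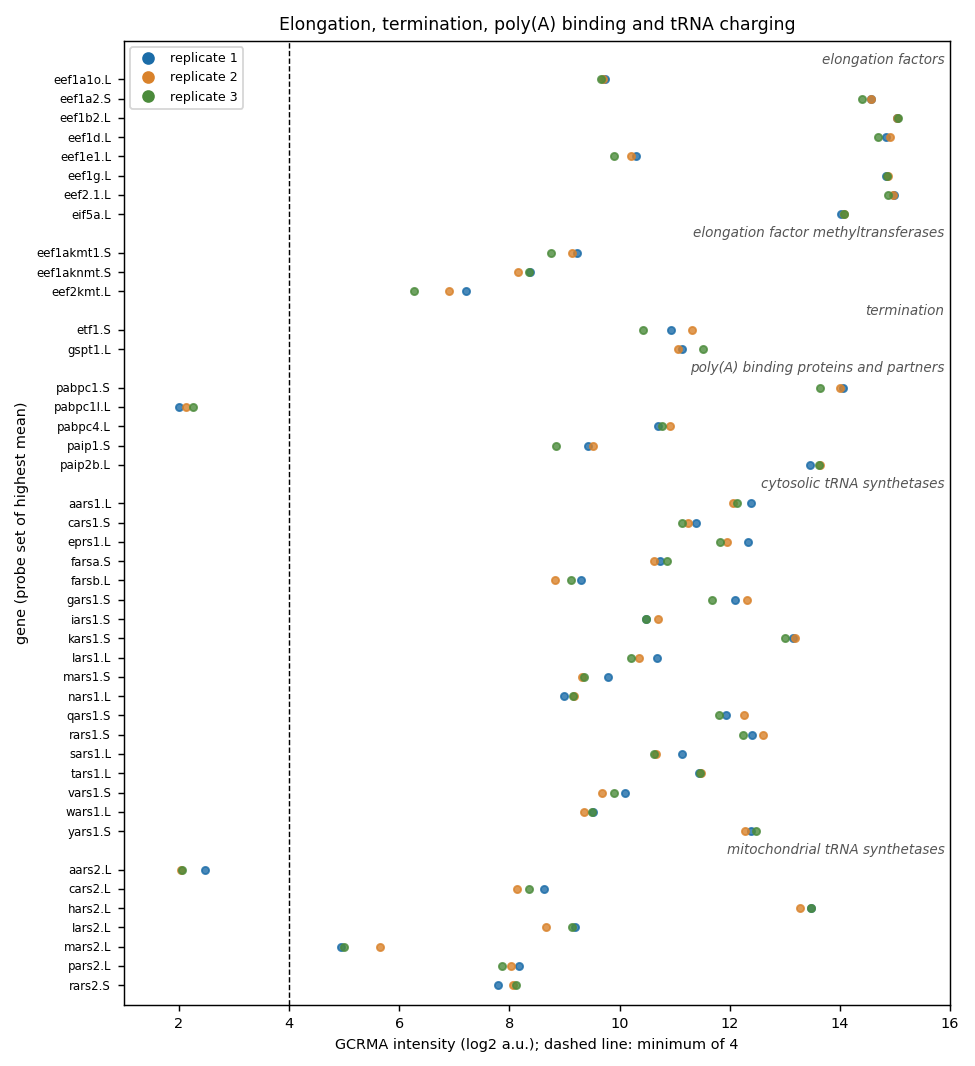
GCRMA intensity (x axis, log2 a.u.) of the Xl-PSID of highest mean for each gene of elongation, termination, poly(A) binding and tRNA charging (y axis, grouped by role), with 1 point per replicate and a dashed line at the minimum of 4. Only pabpc1l and aars2 lie to the left of the line, and the 3 points of eef1b2, like those of eef1g, lie on each other.

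Not every Xl-PSID of a detected gene was detected. Of the 18 Xl-PSIDs below the minimum, 14 belonged to genes that another Xl-PSID detected, and 14 of the 18 had a mean below 2.5. Among the 41 genes with several Xl-PSIDs, 11 disagreed on detection, against 32.4% of all named genes with several. The widest gap was found for eef2.1, with Xl-PSIDs at 14.94 ± 0.06 and 1.90 ± 0.00, both for the L homeolog. For eef1d the L homeolog held both 14.81 ± 0.11 and 1.91 ± 0.00, while the sole Xl-PSID of S was at 1.89 ± 0.00. Of the 5 Xl-PSIDs for pabpc1, 3 were below the minimum, at 3.81 ± 0.02, 3.80 ± 0.51 and 1.90 ± 0.00, and the second of these read 4.08, 3.22 and 4.11. The same split was seen for eif4a3.1 (13.18 ± 0.13 and 2.33 ± 0.00) and for eif2s1, with 4 Xl-PSIDs from 10.16 to 10.80 and 1 at 1.89. Detection thus rests on part of the Xl-PSIDs for these 11 genes, while every Xl-PSID was detected for 70 of the 84 genes. Among all named genes this held for 6141 of 9240. Of the 84 member genes 43 had a single Xl-PSID and so could not disagree. A gene with 1 Xl-PSID, such as eif2ak1 or aars2, could not be checked in this way.

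**Figure D4:**
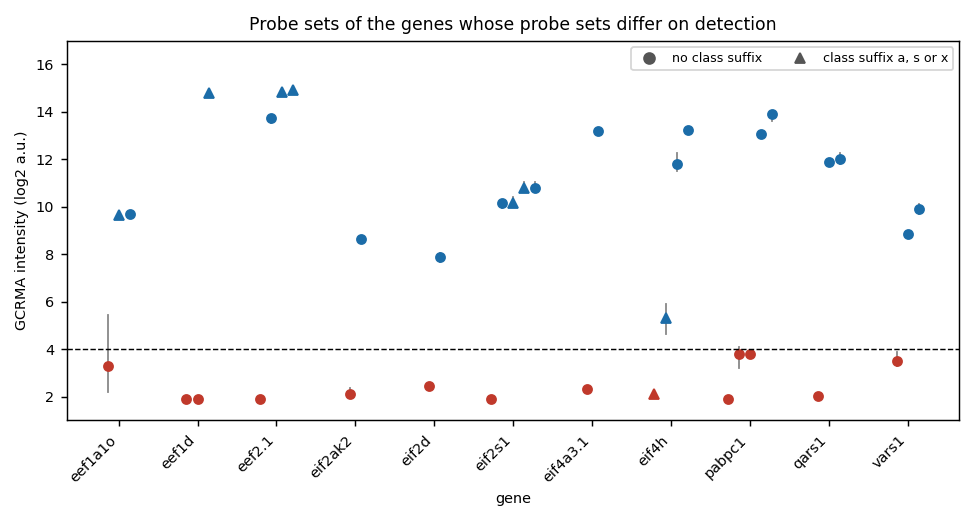
Mean GCRMA intensity (y axis, log2 a.u.) of every Xl-PSID of the 11 genes whose Xl-PSIDs disagree on detection (x axis), with vertical lines from the lowest to the highest array, triangles for Xl-PSIDs of classes that can match several transcripts and red for means below the dashed minimum of 4. Most red points lie at the floor near 2, far from the detected Xl-PSIDs of the same gene, while those of pabpc1, vars1 and eef1a1o lie nearer to the line.

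Homeologs could be followed for some genes. Xl-PSIDs for both L and S were present for 22 genes, and both homeologs were detected for 19. No such count was made over all named genes, so 19 of 22 was not read as a trait of the members. The 3 exceptions were eef1a1o and eef1d, detected on L alone, and pabpc1l, detected on neither. In 11 of the 19 genes both homeologs were lowest on the same array, against 51.7% of 1518 named genes with both homeologs detected, and in 7 of the 19 both were highest on the same array, against 51.5%. For eif2s2, L read 12.15, 12.50 and 12.02 and S read 13.30, 13.50 and 13.34, both highest on replicate 2 but lowest on different arrays. For gars1, L read 11.93, 11.73 and 11.66, highest on replicate 1, while S was highest on replicate 2, and both were lowest on replicate 3.

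The spread between the pools was small. The median SD over the 150 detected members was 0.17, against 0.20 for all 20942 detected Xl-PSIDs. At means of 10 or more, where 101 members lay, it was 0.15 for members and 0.15 for all. None of the detected members had a range of 1.5 or more, against 2.89% of all detected Xl-PSIDs, and 4 had a range of 1 or more, against 8.44%. These 4 were the Xl-PSID of eif4a1 described above, eif5b, one for eif4h (4.63, 5.91 and 5.45) and one for eif4e3 (5.12, 5.97 and 6.24). The last 2 had low means. At means of 10 or more wide ranges were rare in general: 37 of all 9453 such Xl-PSIDs had a range of 1.5 or more and 151 a range of 1 or more. Among the 101 members at these means the counts were 0 and 0.

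The order of the arrays was uneven among the members, although shifts were small. Of the 150 detected Xl-PSIDs, 75 were lowest on replicate 3, against 33.6% of all detected Xl-PSIDs and 38.8% of those with 1 symbol, and 64 were highest on replicate 2, against 32.3% and 37.5%. The median shift of an Xl-PSID, its value on one array less its average on both others, was 0.04, 0.09 and -0.12 on replicates 1, 2 and 3, against 0.01, -0.01 and 0.00 over all detected Xl-PSIDs and 0.01, 0.03 and -0.03 over those with 1 symbol. Start site genes had medians of 0.01, 0.18 and -0.22, with 16 of 21 Xl-PSIDs lowest on replicate 3, and eIF3 had -0.01, 0.13 and -0.19, with 18 of 30 lowest there. The eif4 group had -0.10, 0.13 and 0.02, with 16 of 29 highest on replicate 2, against 32.3% of all, and 14 of 29 lowest on replicate 1, against 31.2% of all. With 1 Xl-PSID per gene its median on replicate 1 was 0.09, and without replicate 1 its median on replicate 3 was -0.09.

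Synthetases of the cytosol had medians of 0.09, -0.12 and -0.11. On replicate 3, 15 of their 29 Xl-PSIDs were lowest, as were 44 of 82 for initiation factors. On replicate 1, 15 of the 29 were highest, against 34.2% of all detected Xl-PSIDs, and 20 of 82 for initiation factors were. With replicate 1 left out, the median of synthetases on replicate 2 turned to 0.05. The difference between the 2 groups was not tested, since each array is 1 pool and Xl-PSIDs of a gene share their transcripts. On replicate 3 the 5′ minus 3′ differences of the controls were also furthest from 0. Neuron and muscle markers moved between arrays by more than the members. Of 23 neuron Xl-PSIDs 19 were detected, 17 of them also by limma, with median shifts of 1.20, 0.05 and -1.05. An Xl-PSID for syn1 (5.70, 3.57 and 3.10) averaged at least 4 only through replicate 1. Of 28 muscle Xl-PSIDs 23 were detected, 19 of them also by limma, with median shifts of -0.44, -0.89 and 0.93. An Xl-PSID for myh8 (6.82, 2.71 and 3.00) likewise averaged at least 4 only through replicate 1. Red blood cell markers had medians of -0.03, 0.38 and -0.57 over the 9 Xl-PSIDs, of 11, that were detected. Of these 9, 6 were highest on replicate 2 and 7 lowest on replicate 3, while 7 of the 9 passed limma. Those for hbg2 did not (limma adjusted p = 0.63 and 0.59) and averaged at least 4 only through replicate 2. Their order was therefore tied to this filter. Wide ranges lay with hbg2 (3.40, 6.87 and 2.66), hba3 (6.95, 8.75 and 6.20) and hbd (7.83, 9.12 and 6.41). The authors list this hbg2 transcript, as hbg2-b, and hba3 among those that were lower in juvenile than in larval ears. They list another, hbg2-a, as higher in juvenile ears than at the youngest larval stage. By contrast hba1 had a range of 0.61, and the Xl-PSIDs for hbg1 had ranges of 0.04 and 0.06. Of the 9 red blood cell Xl-PSIDs, 1 was highest on replicate 1 and 2 on replicate 3, namely hbg1 (15.16, 15.17 and 15.21) and alas2 (10.11, 9.93 and 10.13). Schwann cell markers had 0.18, 0.12 and -0.25 over the 6 Xl-PSIDs, of 7, that were detected, and 5 of these 6 were lowest on replicate 3. The part of RNA quality and of these cell types in the shifts of the members was not tested. In pooled tissue, fewer cells of a type and less RNA per cell cannot be told apart.

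**Figure D5:**
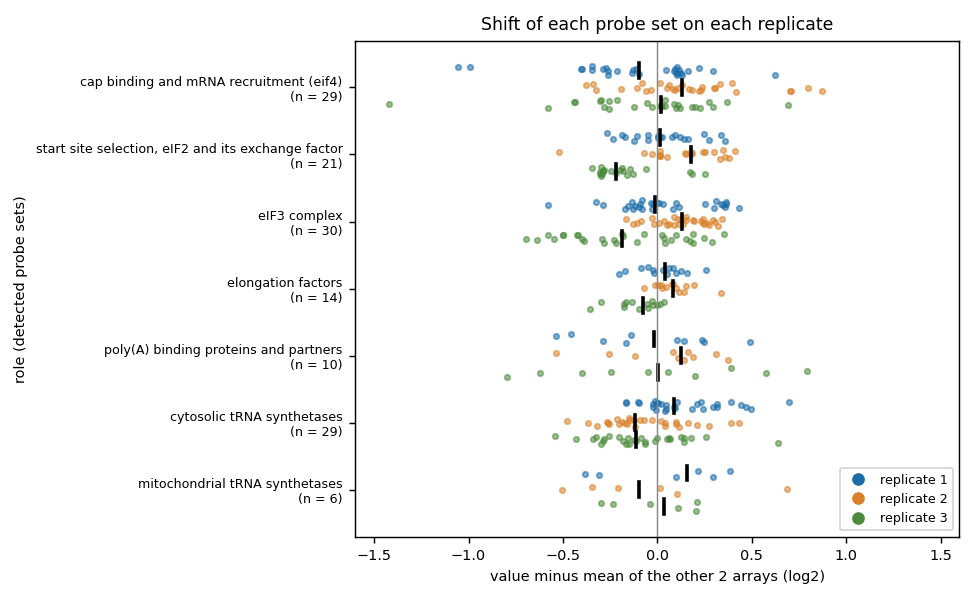
Value of each detected Xl-PSID on an array minus its mean on the other 2 arrays (x axis, log2), by role (y axis, with the number of Xl-PSIDs) and replicate (colour), with black bars at the medians. The bars of start site genes and eIF3 lie below 0 on replicate 3 (-0.22 and -0.19), and that of cytosolic synthetases lies above 0 on replicate 1 (0.09).

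Genes that control or assist translation were counted as a background to the members. Of 17 measured genes that signal to translation all 17 were detected, although the Xl-PSIDs of 4 disagreed on detection. They included the stress factor atf4 (12.39, 12.22 and 11.71), the ribosomal kinase rps6kb1 (12.68, 12.66 and 12.88) and the eif4e kinase mknk2 (13.29, 13.32 and 13.28 on L). For the S homeolog of mknk2, an Xl-PSID read 3.69, 6.01 and 5.16, the largest range (2.32) among the detected Xl-PSIDs of this list, and others lay at 2.04 and 1.96. All 19 measured partners of initiation, elongation and termination were detected, among them the ribosome splitting factor abce1 (12.02) and the helicase ddx3x (14.13). The widest ranges among the printed partners were those of tob1, with 11.21, 10.43 and 11.57, and pan3, with 11.75, 10.64 and 11.24. Both act in shortening the poly(A) tail. The other Xl-PSIDs for pan3 were not detected, with means of 1.89, 1.97 and 1.84, and it was 1 of 3 partner genes whose Xl-PSIDs disagreed. Of 12 partners of tRNA charging 11 were detected, including the synthetase scaffolds aimp1 (12.57, 12.70 and 12.40) and aimp2 (10.07, 10.17 and 10.38) and the amino acid transporter pair slc7a5 (12.66) and slc3a2 (13.78), while the pseudouridine synthase pus1 (2.20) was not. Mitochondrial translation was represented by 4 genes, gfm1, tsfm, mtif3 and qrsl1, and all were detected. The limma test passed 30, 28, 17 and 6 of the 36, 35, 20 and 6 Xl-PSIDs of these lists at an adjusted p below 0.05. Of all Xl-PSIDs with 1 symbol 70.8% passed, and 80.2% of all named genes were detected. The partner dph2 (4.26) and the charging partner nsun2 (4.28), each with 1 Xl-PSID, were detected by mean only (limma adjusted p = 0.107 and 0.213). In these lists 10, 8, 3 and 9 further genes had no Xl-PSID under their symbol.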

How the data were processed

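Total RNA of inner ears, pooled within each of 3 replicates, was amplified, labelled and hybridised by the authors to Affymetrix GeneChip arrays. The authors preprocessed the scans with GCRMA in JMP Genomics 5.0 and deposited log2 intensities (a.u.), 1 for each Xl-PSID on each array. The methods name 3 replicate arrays per developmental stage as the input, without saying whether stages were normalized jointly, and scanner files were not used. GCRMA draws unexpressed Xl-PSIDs to a floor near 2, where differences are compressed.

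Members were found by symbol in the platform annotation, and the 96 control Xl-PSIDs were left out of counts over the table, which left 32539. Roles were assigned by symbol. The members, lists and roles were chosen with earlier results of these data known, and the roles were regrouped once after the members' values had been seen. Detection required an average of at least 4, the study's own intensity minimum. Detection was also tested with limma 3.58.1 (R 4.3.3), moderated and one-sided, for means exceeding 4, with Benjamini-Hochberg adjustment over all 32539 Xl-PSIDs at 0.05, and this procedure was tested on simulated data. Differences between arrays had no test, because each array is a single pool. Summaries were computed in Python 3.11.15 with pandas 2.3.3 and numpy 2.4.6. No sequences are shown, as none were used here.

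Named genes followed a rule: textbook members of each role, the 10 Xl-PSIDs of largest range, the 10 of highest mean, genes not detected and genes whose Xl-PSIDs disagreed. Other members and pathway genes named with values, such as eif4g3, eif2d, pan3 and tob1, were chosen after their values were seen. Other minimums, quantile normalization, other Xl-PSID classes, other units and leaving out each replicate were tried as alternatives.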

Additional observations from a re-analysis of the deposited data

How the results depend on the processing

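Between 132 and 154 of the 168 members were detected at minimums of 3, 5, 6 and 8. Without Xl-PSIDs of classes that can match several transcripts, 114 were detected. That setting also took the 21, 6 and 10 members of classes a, s and x out of the 168, so the lower count is no loss of detection among the rest. With each replicate left out, 150 to 151 were detected by mean and 147 to 149 by limma. The member added without replicate 2 was the pabpc1 Xl-PSID at 4.08, 3.22 and 4.11. The count of detected members with a range of 1.5 or more, 0 as given, became 4 at a difference minimum of 1, 1 after quantile normalization (eif4a1) and 1 with no filter on the mean (eef1a1o.S). It was 0 with any replicate left out. The median shift of all members kept its sign on replicates 2 and 3 under all alternatives, at 0.04 to 0.13 and -0.14 to -0.07, while that on replicate 1 became -0.04 without replicate 3. No paired analysis was possible because all arrays belong to 1 group. The number of arrays limits the precision, and differences near the floor of 2 are compressed.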
